A study of Mus musculus with 3 samples.

Results

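Peaks of ATRX at 35 marker genes of glial cells were examined in mouse neuron cultures. The genes are 13 astrocyte, 10 oligodendrocyte lineage and 12 microglia markers, among 21883 protein-coding genes. They were chosen by name, as genes that mark cells other than neurons, and a peak was taken as lying at a gene when it overlapped the gene or the 5 kb on either side by at least 1 bp. The control list had 114 such peaks among 112153, and the MICAL1-FL list had 129 among 105674. No peak lay at more than 1 of the genes. ATRX-bound DNA had been profiled by ChIP-seq in primary neurons of C57BL6/J embryos taken at E15.5 to E17.5, grown with 2% fetal bovine serum, given lentivirus at day 5 of culture and harvested at day 14. Control neurons carried mCherry, a fluorescent protein, and the other neurons carried MICAL1-FL, a form of the actin-oxidising enzyme MICAL1. The labels name no promoter for either construct, do not say whether glial cells had been removed, and do not say how many embryos each culture pooled. Each condition had 1 library, which leaves its differences without a replicate check and allowed no test.

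Primary neuron cultures are known to hold some glia, because progenitors in the embryonic brain give rise to astrocytes and oligodendrocyte precursors after they have made neurons, and because microglia enter the brain from the yolk sac. Astrocytes clear glutamate and buffer potassium, oligodendrocytes wrap axons in myelin, and microglia are the resident macrophages of the brain. ATRX is a chromatin remodeller known to place histone H3.3 with DAXX at repeats and at silent loci. A ChIP peak gives the position of ATRX and does not measure expression, so the markers could not be used here to say which cells the cultures held. Fragments from neurons and from any glia were pooled, so the number of glial cells and the ATRX bound in each cannot be told apart. Peak identifiers in the MICAL1-FL list start with TBC_M2, a code that the labels do not explain. Every MICAL1-FL value therefore rests on the title given to that sample.

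Peaks in both lists were shallow. Depth, recovered from the fold and p-value that the authors' peak caller gave each peak, had a median of 5 fragments in both lists, over a lowest background of 1.62 fragments. The q-value was below 0.05 for 466 control and 402 MICAL1-FL peaks in all, and for 0 and 0 peaks at glial genes. Summits were 3.30 times as dense in the control list and 3.62 times as dense in the MICAL1-FL list within 250 bp of RefSeq gene starts as at 5 to 10 kb from them, and the GRCm38 gene positions were used on that ground, since no label names the build. Intervals below are 95% exact intervals that cover counting error only, since each condition had 1 library. They are Poisson intervals for peaks per Mb, conditional binomial intervals for ratios of peak numbers and Clopper-Pearson intervals for shares. No molecular identifiers are stated.

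The sequences shown are the RefSeq promoters (GRCm38.p6, 250 bases before to 50 after the start, 300 in all) of the 4 glial genes whose promoter a peak overlapped, and of Slc4a4, the 1 gene at which overlapping peaks of both lists had their summits within 1 kb of a RefSeq start. Capitals mark runs of 4 or more G or C, the GGGG motif read on both strands. The Cnp promoter, chr11:100574689-100574988 (+ strand), lay with all 300 bases inside a control peak. The Olig2 promoter, chr16:91225300-91225599 (+ strand), lay with all 300 bases inside a MICAL1-FL peak. A MICAL1-FL peak covered 82 bases of the Glul promoter, chr1:153899679-153899978 (+ strand), and another covered 48 bases of the Cx3cr1 promoter, chr9:120068247-120068546 (- strand). The Slc4a4 promoter, chr5:88887010-88887309 (+ strand), belongs to an internal start of that gene and had peaks of both lists on either side.
Cnp: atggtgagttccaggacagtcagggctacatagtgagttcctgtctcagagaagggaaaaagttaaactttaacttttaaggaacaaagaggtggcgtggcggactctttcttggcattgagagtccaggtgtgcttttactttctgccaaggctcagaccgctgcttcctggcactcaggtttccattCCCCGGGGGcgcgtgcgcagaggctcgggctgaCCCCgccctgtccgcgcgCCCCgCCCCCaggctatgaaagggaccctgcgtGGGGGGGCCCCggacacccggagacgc
Olig2: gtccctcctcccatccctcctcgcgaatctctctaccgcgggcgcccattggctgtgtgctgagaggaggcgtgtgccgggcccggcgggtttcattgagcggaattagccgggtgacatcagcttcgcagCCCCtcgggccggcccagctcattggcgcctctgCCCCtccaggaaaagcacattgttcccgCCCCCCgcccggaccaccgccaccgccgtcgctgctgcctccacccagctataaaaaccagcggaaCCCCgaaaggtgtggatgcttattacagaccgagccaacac
Glul: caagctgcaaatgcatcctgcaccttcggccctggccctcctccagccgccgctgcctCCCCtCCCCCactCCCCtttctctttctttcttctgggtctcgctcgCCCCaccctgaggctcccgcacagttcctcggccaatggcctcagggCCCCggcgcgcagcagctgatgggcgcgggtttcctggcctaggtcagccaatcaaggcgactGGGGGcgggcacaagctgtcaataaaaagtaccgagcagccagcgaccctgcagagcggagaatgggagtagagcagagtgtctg
Cx3cr1: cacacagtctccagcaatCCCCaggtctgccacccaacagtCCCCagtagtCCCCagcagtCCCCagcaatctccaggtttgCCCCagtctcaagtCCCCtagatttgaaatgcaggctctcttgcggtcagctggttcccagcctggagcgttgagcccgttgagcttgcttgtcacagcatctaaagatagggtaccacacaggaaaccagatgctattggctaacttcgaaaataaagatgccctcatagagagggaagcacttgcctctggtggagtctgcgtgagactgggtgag
Slc4a4: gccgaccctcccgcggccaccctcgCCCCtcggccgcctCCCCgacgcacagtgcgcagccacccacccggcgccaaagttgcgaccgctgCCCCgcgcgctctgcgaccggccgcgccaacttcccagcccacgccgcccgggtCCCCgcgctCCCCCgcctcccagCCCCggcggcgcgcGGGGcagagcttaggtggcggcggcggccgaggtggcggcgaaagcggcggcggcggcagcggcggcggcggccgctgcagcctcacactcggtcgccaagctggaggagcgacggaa

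These 5 promoters differed widely in base composition. The Slc4a4 promoter was 80% G and C and held 50 CG steps, and the Olig2 promoter was 65% and held 25. The Glul and Cnp promoters held 17 CG steps each, at 64.3% and 59.7% G and C, and the Cx3cr1 promoter held 5 at 54.3%. Over all 32851 promoters of the RefSeq table the medians were 52.7% G and C and 7 CG steps. Runs of GGGG on either strand numbered 7 in the Cnp and Slc4a4 promoters, 6 in Glul and Cx3cr1 and 4 in Olig2. The median of all promoters was 3 and 86.4% of promoters held at least 1. For the 32 promoters of glial genes, most of which no peak overlapped, these values were 5 and 90.6%. The telomere repeat unit TTAGGG, which ends in GGG and can overlap a GGGG run, was found on either strand in none of the 5, in 21.9% of the 32 promoters of glial genes and in 10.6% of all promoters. The table held promoters for 26 of the 35 genes. Aqp4, Sox9, Mbp, Olig1, Sox10, Csf1r, Tmem119, C1qa and Tyrobp were not matched, and for them the left and right ends of the gene are given without saying which is the start.

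Most glial genes carried at least 1 ATRX peak, and the long ones carried most of them. A control peak lay at 28 of 35 genes (80%), where 64.0% of all protein-coding genes had one. A MICAL1-FL peak lay at 23 genes (65.7%, against 61.2% of all genes). Both lists had a peak at 21 genes (60%, against 48.2%), and neither had one at 5 (14.3%, against 22.9%). The astrocyte gene Slc4a4, the myelin gene Mbp and the astrocyte gene Slc1a2 held 60 peaks in each list together, which made up 52.6% of the control total at glial genes and 46.5% of the MICAL1-FL total. At the other end, 15 genes had at most 1 peak in each list. Across the 35 genes, peak number in both lists together went with the length of gene and flank (Spearman's rho 0.56, Pearson's r 0.93), as it did across all protein-coding genes (0.67 and 0.86). The genes share libraries, and these values are descriptions.

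Glial genes without a peak were short. The 5 genes with no peak were all among the 15 of up to 10 kb, a length at which 42.5% of all protein-coding genes had no peak. Of those 15 genes, 9 had a control peak (41.7% of all genes of that length did) and 7 a MICAL1-FL peak (38.1%). Of the 9 genes of 10 to 30 kb, 9 had a control peak (63.3% of all such genes) and 6 a MICAL1-FL peak (59.2%). Of the 11 genes over 30 kb, 10 had a peak in each list (88.2% and 87.4%). In both of these longer bands 0 glial genes lacked a peak, where 19.9% and 4.84% of all such genes did.

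**Figure D1:**
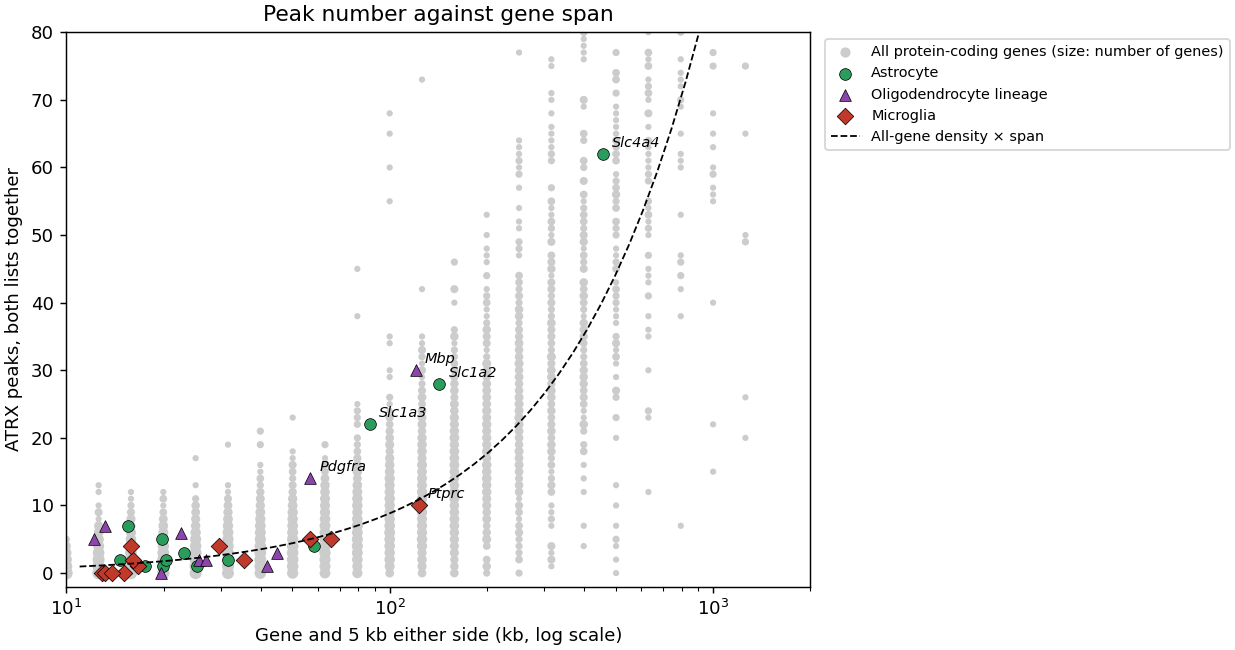
Peaks in both lists together (y axis) against the length of gene and flank (x axis, kb, log scale) for the 35 glial genes and for all protein-coding genes in grey, whose lengths are binned and of which 114 above 80 peaks are not drawn. The dashed line is the all-gene density times length, and Mbp, Slc1a2, Slc1a3, Pdgfra and Slc4a4 lie above it while Ptprc lies near it.

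Astrocyte genes held 63 control and 77 MICAL1-FL peaks, which is 67.7 peaks per Mb (52.0 to 86.6) and 82.7 peaks per Mb (65.3 to 103). All protein-coding genes together had 45.9 and 42.5 peaks per Mb. The MICAL1-FL to control ratio of peak numbers was 1.22 (0.865 to 1.73), an interval that includes 1, where that of all protein-coding genes was 0.927. Control peaks lay at 12 and MICAL1-FL peaks at 8 of the 13 genes, where 64.0% and 61.2% of all protein-coding genes had one. Of the 13, 5 had more peaks in the MICAL1-FL list, 6 had more in the control list and 2 had equal numbers. Among all protein-coding genes, 28.7% had more MICAL1-FL and 35.1% more control peaks.

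The glutamate transporters led the astrocyte genes in peak number after Slc4a4. Slc1a3 encodes GLAST, the glutamate transporter of radial glia and young astrocytes, and had 6 control and 16 MICAL1-FL peaks, where the all-gene density gives 3.98 and 3.68 for its 86.7 kb of gene and flank. Its ratio was 2.67 (0.991 to 8.32), an interval that just includes 1. The MICAL1-FL peaks were 4 to 8 fragments deep and ran along the whole gene, with 3 before its 5′ end, at 1.825, 3.41 and 4.38 kb, and 1 after its 3′ end. The control peaks were 4 to 9 fragments deep and lay inside the gene, 1 of them 0.906 kb from its 3′ end. Without Slc1a3 the astrocyte ratio was 1.07 (0.734 to 1.56). Slc1a2 encodes GLT-1, the main glutamate transporter of mature astrocytes, and had 12 and 16 peaks (ratio 1.33, 0.592 to 3.09), against 6.54 and 6.06 at the all-gene density. Its strongest control peak by p-value, at chr2:102658824-102659527, was 8 fragments deep with a fold of 3.16 and lay about 1 kb inside the 5′ end of the gene.

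Slc4a4, which encodes the sodium bicarbonate cotransporter NBCe1, had 29 control and 33 MICAL1-FL peaks (ratio 1.14, 0.670 to 1.94). At the all-gene density its 456 kb would hold 20.9 and 19.4. It had overlapping peaks of both lists at 5 places, more than any other glial gene. At 2 of these the peaks flanked the internal start whose promoter is printed above. On the upstream side, a control peak covered chr5:88886421-88886994, 9 fragments deep over a background of 3.70, and a MICAL1-FL peak covered chr5:88886443-88886915, 8 fragments deep over 1.62, with summits 35 bp apart. On the downstream side, the control peak covered chr5:88887546-88888004 (6 fragments) and the MICAL1-FL peak chr5:88887320-88887816 (4 fragments), with summits 60 bp apart. The 4 summits lay 420 to 526 bp from the start, and no peak of either list covered the promoter between them. The other 3 places lay deeper in the gene, with summits 200, 488 and 388 bp apart.

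Sox9, a transcription factor that sets astrocyte identity, was the most densely covered astrocyte gene with at least 5 peaks. It had 4 control and 3 MICAL1-FL peaks, or 257 and 193 peaks per Mb. A control peak at chr11:112782342-112783206 (8 fragments) overlapped a MICAL1-FL peak at chr11:112782436-112782973 (9 fragments), with summits 0.792 and 0.422 kb inside the left end of the gene. Another control peak, at chr11:112784272-112785406, was 8 fragments deep with a fold of 3.16. Glul, the glutamine synthetase that turns cleared glutamate into glutamine, had 2 control and 3 MICAL1-FL peaks. At Glul, peaks of both lists overlapped inside the gene, at chr1:153905266-153905585 and chr1:153905232-153905588. In addition, 2 MICAL1-FL summits lay upstream of its start, 207 and 987 bp from it, where the control list had none.

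The genes of connexins, enzymes and calcium-binding and filament proteins of astrocytes carried between 0 and 4 peaks per list. Gja1, which encodes connexin 43, had 3 control peaks, 1 of them 0.592 kb inside its start, and 0 MICAL1-FL peaks. Gjb6, which encodes connexin 30, had 1 peak in each list, the control one at its 3′ end. Aldh1l1, the folate enzyme that marks most astrocytes, had 0 control and 4 MICAL1-FL peaks, the deepest of 8 fragments at chr6:90572874-90573166 and 1 with its summit 0.405 kb beyond the 3′ end. Aldoc, the brain aldolase, had 2 and 0 peaks, with 1 summit 164 bp from its internal RefSeq start and the other peak also in the gene Pigs. The water channel gene Aqp4 had 1 peak in each list. The intermediate filament gene Gfap, the growth factor receptor gene Fgfr3 and S100b had 1 control peak and 0 MICAL1-FL peaks each. With so few peaks, presence in only 1 of the lists is no evidence that the gene differed between conditions.

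**Figure D2:**
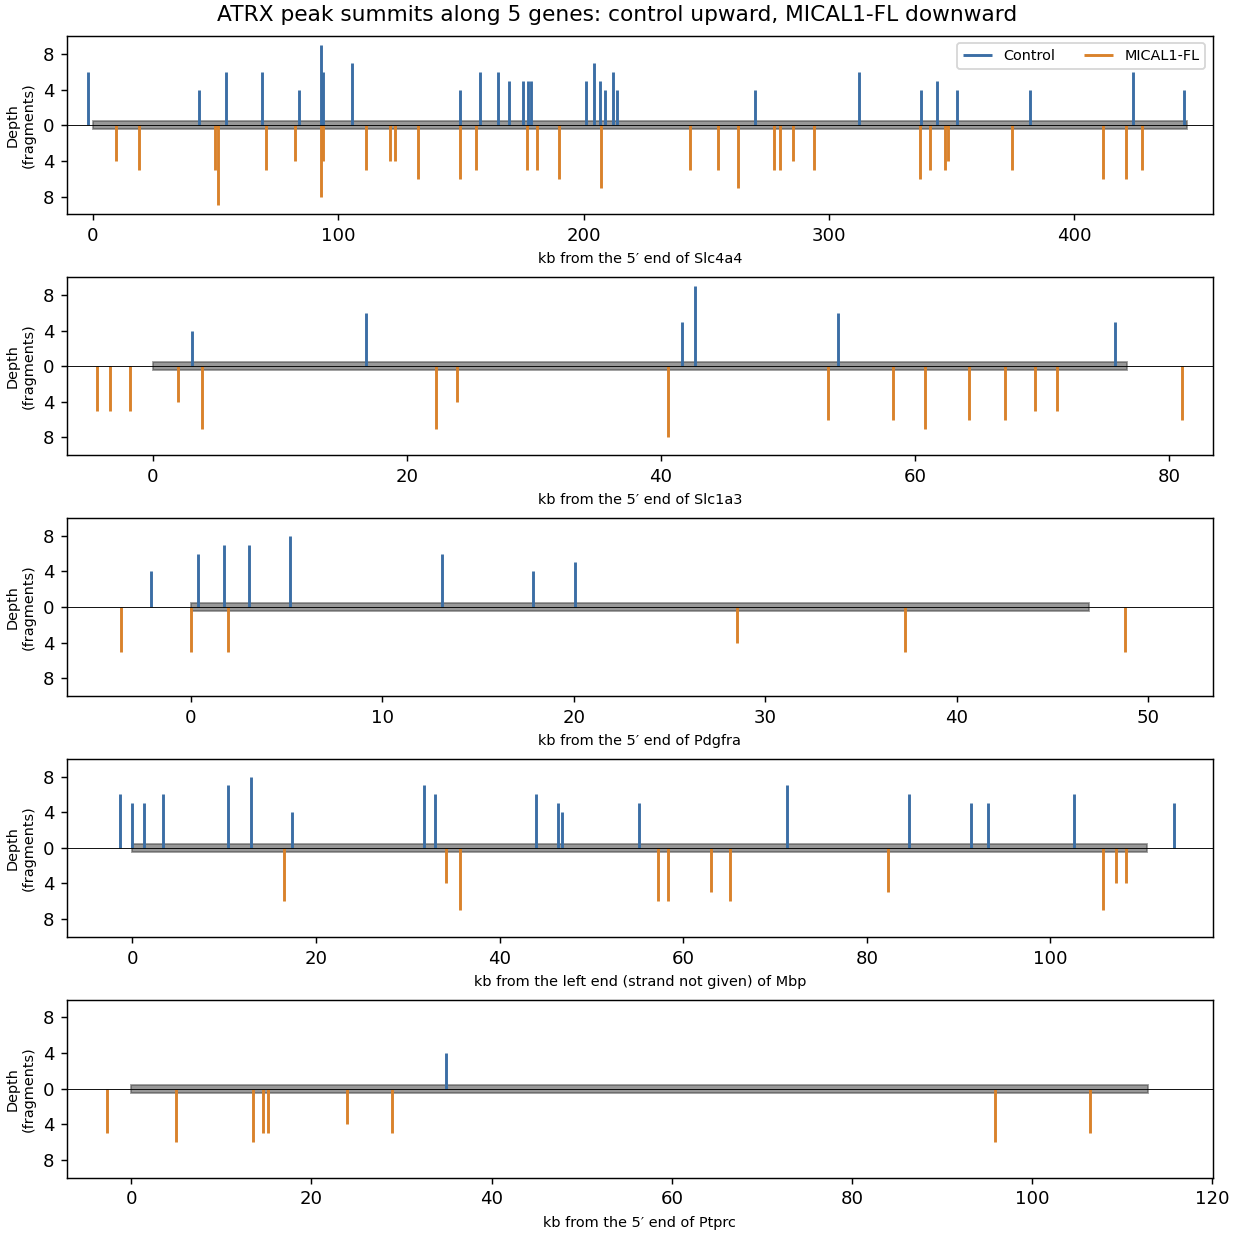
Position of peak summits along 5 glial genes (x axis, kb from the 5′ end of the gene, or from its left end for Mbp) with recovered depth in fragments (y axis), control upward and MICAL1-FL downward; the grey bar is the gene. Peaks of 4 to 9 fragments run along Slc4a4 and Slc1a3, 7 of 8 control peaks of Pdgfra lie in its first 30 kb, and 6 of 9 MICAL1-FL peaks of Ptprc lie in its first 30 kb.

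Oligodendrocyte lineage genes had the highest control density of the glial classes, though its interval overlapped that of astrocyte genes. They held 38 control and 32 MICAL1-FL peaks, or 98.9 peaks per Mb (70.0 to 136) and 83.3 peaks per Mb (57.0 to 118). The control density was 2.16 times that of all protein-coding genes (1.53 to 2.96), and without Mbp it was 1.57 times (0.946 to 2.45). Astrocyte genes without Slc4a4, their gene of most peaks, had 1.56 times (1.08 to 2.18). Oligodendrocyte lineage genes without Mbp thus still ranked first in the control list, but these values were nearly equal and their intervals overlapped. The ratio of peak numbers was 0.842 (0.509 to 1.38), and without Mbp it was 1.11, on the other side of 1. Control peaks lay at 9 and MICAL1-FL peaks at 8 of the 10 genes (64.0% and 61.2% of all protein-coding genes had one). Of the 10, 4 had more peaks in the MICAL1-FL list (28.7% of all genes did), 3 had more in the control list (35.1%) and 2 had equal numbers.

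Mbp, the gene of myelin basic protein, made up much of this. It had 19 control and 11 MICAL1-FL peaks in 121 kb (ratio 0.579, 0.249 to 1.28), where the all-gene density gives 5.53 and 5.12. The control peaks were 4 to 8 fragments deep and the MICAL1-FL peaks 4 to 7. Of the control summits, 5 lay in the 20 kb inside the left end of the gene and 2 more outside it, at -0.055 and -1.296 kb. The MICAL1-FL list had 1 summit in those 20 kb, at 16.5 kb, and 0 outside that end. Inside the gene, 11 control and 3 MICAL1-FL summits lay left of its midpoint. Right of the midpoint the order was the other way, with 5 control and 8 MICAL1-FL summits. No peaks of the lists overlapped at Mbp.

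Of the transcription factors of the lineage, Olig1 and Olig2 carried many peaks for their length and Sox10 carried none. Olig2, which specifies oligodendrocyte and motor neuron progenitors, had 3 control and 4 MICAL1-FL peaks in 13.1 kb of gene and flank, or 229 and 305 peaks per Mb. The MICAL1-FL peak over its promoter covered chr16:91225025-91225771 and was 6 fragments deep over a background of 1.88, with its summit 122 bp before the start. A control peak at chr16:91227539-91227987 (7 fragments) overlapped a MICAL1-FL peak at chr16:91227947-91228533 (5 fragments) near the 3′ end, but their summits were 755 bp apart. Olig1, its neighbour and partner in the lineage, had 2 and 3 peaks, or 164 and 246 peaks per Mb. A control peak of 8 fragments at chr16:91270259-91270508 and a MICAL1-FL peak of 7 fragments at chr16:91269454-91270027 lay side by side there without overlap. Sox10 is needed for oligodendrocytes to mature.

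Pdgfra, the growth factor receptor of oligodendrocyte precursors, had 8 control and 6 MICAL1-FL peaks (ratio 0.750, 0.214 to 2.46), where the all-gene density gives 2.61 and 2.42. The control peak at chr5:75156306-75156965 was the strongest of the class by p-value, 8 fragments deep with a fold of 3.43 and a q-value of 0.705. Both lists had a peak with its summit within 1 kb of the 5′ end, at 0.358 kb inside it in the control list and at -0.018 kb, just outside it, in the MICAL1-FL list. A control peak at chr5:75152860-75153277 (7 fragments) overlapped a MICAL1-FL peak at chr5:75153200-75153768 (5 fragments), with summits 203 bp apart. The precursor proteoglycan gene Cspg4, which encodes NG2, had 1 and 2 peaks.

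Genes of compact and mature myelin other than Mbp had between 0 and 4 peaks per list. Cnp, a phosphodiesterase of myelin, had 1 control peak over its promoter, at chr11:100574552-100575059, 6 fragments deep over a background of 2.05 with its summit 192 bp from the RefSeq start. Its 1 MICAL1-FL peak lay 6.6 kb inside the gene. Mog, a surface protein of myelin, had 2 control and 4 MICAL1-FL peaks, and 1 of the control peaks also lay in the imprinting factor gene Zfp57. Mag, an adhesion protein of myelin, had 1 peak in each list, and Mobp had 1 control peak and 0 MICAL1-FL peaks. The all-gene density gives 1.24 and 1.15 peaks for Cnp, 1.04 and 0.963 for Mog, 1.18 and 1.09 for Mag and 1.91 and 1.77 for Mobp. The strongest MICAL1-FL peak of the class, at Mbp (chr18:82580468-82580956), was 7 fragments deep with a fold of 3.06 and a q-value of 1.

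Microglia genes had the fewest peaks of the glial classes. They held 13 control and 20 MICAL1-FL peaks, or 32.4 peaks per Mb (17.3 to 55.5) and 49.9 peaks per Mb (30.5 to 77.1), and both intervals include the densities of all protein-coding genes. The ratio was 1.54 (0.728 to 3.37). Without the leukocyte phosphatase gene Ptprc it was 0.917, so the direction rested on that gene. Peaks lay at 7 of the 12 genes in each list, 6 of them the same genes. Among all protein-coding genes, 64.0% had a control peak, 61.2% a MICAL1-FL peak and 48.2% a peak of both lists.

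Ptprc, which encodes the leukocyte antigen CD45, had 1 control and 9 MICAL1-FL peaks in 123 kb. The all-gene density gives 5.64 and 5.22, so the control number lay below it and the MICAL1-FL number above it. The ratio was 9 (1.247 to 394), the 1 interval among the 13 glial genes with 5 or more peaks that leaves out 1. Over all protein-coding genes with 5 or more peaks, such intervals left out 1 at 2.13%, lying above it at 0.840% and below it at 1.29%. The 9 MICAL1-FL peaks were 4 to 6 fragments deep with a q-value of 1, and 6 of them lay in the first 30 kb of the gene, at 5.004, 13.5, 14.6, 15.2, 23.9 and 28.9 kb from its 5′ end. The control peak was 4 fragments deep and lay 34.99 kb from it.

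The surface receptors of microglia had between 0 and 4 peaks per list. Itgam, the integrin CD11b, had 4 control peaks and 1 MICAL1-FL peak, the latter 0.796 kb inside its start. The strongest control peak of the class lay at Itgam (chr7:128103204-128103495), 7 fragments deep with a fold of 3.05. P2ry12, the ADP receptor of resting microglia, had 1 and 4 peaks, all of which also lay in the gene Med12l. The fractalkine receptor gene Cx3cr1 had 2 peaks in each list, and the MICAL1-FL peak that reached into its promoter, at chr9:120068499-120068841, was 4 fragments deep. Csf1r, the receptor on whose signal microglia survive, had 2 control peaks, 0.930 and 2.94 kb inside its left end, and 0 MICAL1-FL peaks. Trem2, a lipid receptor, had 2 peaks in each list, 1 of the MICAL1-FL summits at its 3′ end, and Tmem119 had 0 and 1. The strongest MICAL1-FL peak of the class by p-value, at Ptprc (chr1:138162030-138162300), was 6 fragments deep.

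The complement genes and the small signalling genes of microglia had 0 or 1 peak per list. They are short, and the all-gene density gives 0.593 to 0.737 control and 0.550 to 0.683 MICAL1-FL peaks for each. Of all protein-coding genes of up to 10 kb, 42.5% had no peak. C1qb had 1 peak in each list, both beyond its 3′ end, and C1qa and C1qc, its neighbours, had none. Aif1, which encodes the actin-binding protein IBA1, and Tyrobp, the adaptor DAP12, had none. No microglia peak of either list overlapped a peak of the other (0 of 13, an interval of 0 to 24.7%, and 0 of 20, 0 to 16.8%), and these intervals include the shares at all protein-coding genes, 8.05% of control and 8.69% of MICAL1-FL peaks.

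Where the lists are set side by side, 13 glial genes had 5 or more peaks together, and 4 of them (30.8%) had at least 2 times as many MICAL1-FL as control peaks, namely Slc1a3, Mog, P2ry12 and Ptprc. Over all protein-coding genes with 5 or more peaks this was so at 13.5%. At least 2 times as many control peaks were found at 1 of the 13 (7.69%), Itgam, against 19.0% of all such genes. Mog, P2ry12 and Itgam stood on 5 or 6 peaks each. Among the 4 glial genes with 15 or more peaks, 1, Slc1a3, had at least 2 times as many MICAL1-FL as control peaks, against 5.64% of all such genes. That share rests on 1 gene, whose ratio interval (0.991 to 8.32) includes 1. Counted over all 35 genes, 12 (34.3%) had more MICAL1-FL peaks and 11 (31.4%) had more control peaks, where 28.7% and 35.1% of all protein-coding genes did. The ratio over all glial genes was 1.13 (0.873 to 1.47), an interval that includes both 1 and the all-gene ratio of 0.927.

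Peaks at glial genes were shared between lists about as often as peaks at other genes. Of the control peaks, 10 of 114 (8.77%, 4.29 to 15.54) overlapped a MICAL1-FL peak, and of the MICAL1-FL peaks, 10 of 129 (7.75%, 3.78 to 13.8) overlapped a control peak. At all protein-coding genes the shares were 8.05% and 8.69%. The overlapping peaks lay at 6 genes, Slc4a4, Slc1a2, Sox9, Glul, Olig2 and Pdgfra (17.1%, against 14.8% of all genes). Of the 10 overlaps, 8 lay at astrocyte genes and 2 at oligodendrocyte lineage genes.

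Summits near gene ends were also about as common as elsewhere. A control summit lay within 1 kb of a gene end at 10 of 35 genes (28.6%, against 26.6% of all genes) and a MICAL1-FL summit at 9 (25.7%, against 25.3%). Both lists had one at Sox9, Olig1, Olig2 and Pdgfra (11.4%, against 10.3%), and at least 1 list had one at 15 genes (42.9%, against 41.6%). Of the 26 genes with a RefSeq start, 5 had a control summit within 1 kb of it (24.1% of all genes with a start) and 6 a MICAL1-FL summit (23.1%). Slc4a4 alone had overlapping peaks of both lists there, as did 6.04% of all genes with a start.

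Peaks at glial genes had much the same depths as the rest. Their median depth was 5 fragments and their greatest 9 in both lists, and depths of 6 or less made up 80.7% (control) and 86.8% (MICAL1-FL) of them, against 83.3% and 85.8% of all peaks. The q-value was 1 for 111 of 114 control and 127 of 129 MICAL1-FL peaks. The lowest q-values, 0.626, belonged to 2 MICAL1-FL peaks 8 fragments deep, the one beside the Slc4a4 start and one at Slc1a3 (chr15:8670128-8670473).

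**Figure D3:**
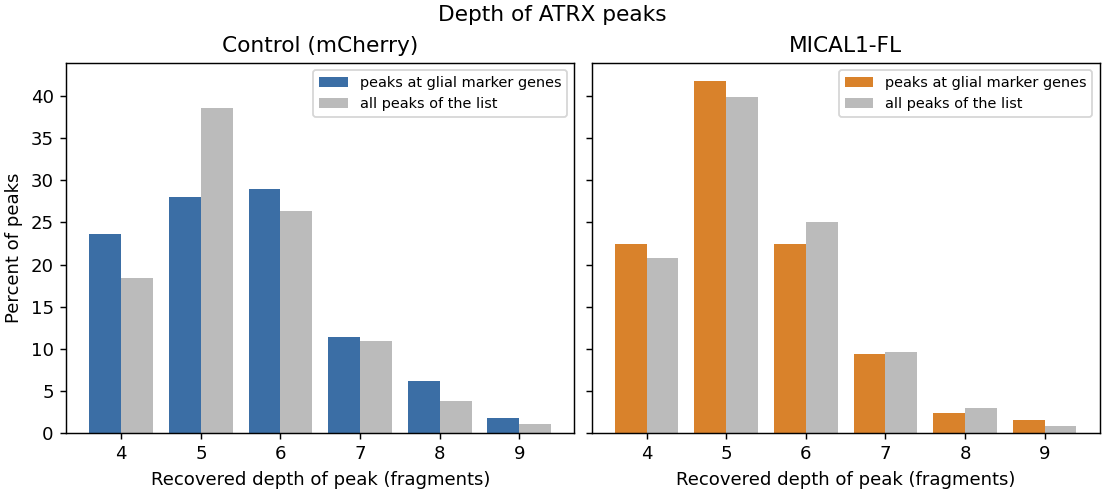
Share of peaks (y axis, percent) by recovered depth (x axis, fragments) for peaks at glial genes (coloured) and for all peaks of the same list (grey), of which those deeper than 9 fragments are not drawn. In both lists most peaks at glial genes are 4 to 6 fragments deep.

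Glial genes as a whole had 66.4 control peaks per Mb (54.8 to 79.8) and 75.2 MICAL1-FL peaks per Mb (62.8 to 89.3). Relative to all protein-coding genes this was 1.45 times (1.19 to 1.74) and 1.77 times (1.48 to 2.101). Gene by gene, the median density was 56.2 control and 49.2 MICAL1-FL peaks per Mb, against 32.8 and 29.4 over all protein-coding genes. A list of 20 neuron markers had densities of 69.1 (57.3 to 82.7) and 65.7 (54.1 to 78.9), intervals that overlap those of the glial genes. Between the glial classes, the control density of oligodendrocyte lineage genes (98.9) lay above the interval of microglia genes, and that of microglia genes (32.4) lay below the interval of oligodendrocyte lineage genes. Without Mbp and Ptprc, the genes of most peaks, these classes had 1.57 times (0.946 to 2.45) and 0.942 times (0.487 to 1.64) the all-gene control density. The first of these values lay inside the interval of the second.

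**Figure D4:**
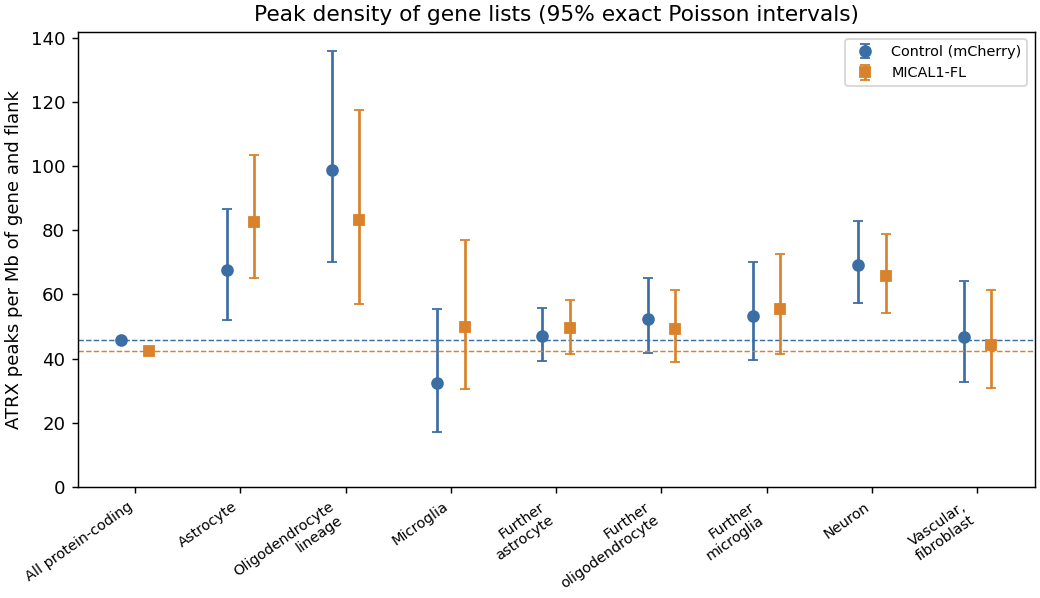
Peaks per Mb of gene and flank (y axis) for the 3 glial classes, 3 lists of further glial genes, neuron markers and vascular or fibroblast markers, in the control (circles) and MICAL1-FL (squares) lists, with 95% exact Poisson intervals; dashed lines are all protein-coding genes. The astrocyte, oligodendrocyte lineage and neuron intervals lie above the dashed lines in both lists, and those of the other lists include them. Without Mbp (not drawn), the control interval of oligodendrocyte lineage genes includes the all-gene density.

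Lists of further glial genes had densities whose intervals include those of all protein-coding genes. The shares of all protein-coding genes with a peak, for the counts that follow, were 64.0% (control) and 61.2% (MICAL1-FL). Of 20 further astrocyte genes, 15 had a control and 19 a MICAL1-FL peak, with 47.0 and 49.5 peaks per Mb. Their largest numbers were at the glypican gene Gpc5 (47 control and 46 MICAL1-FL peaks) and at Nfia (33 and 28) and Nfib (15 and 20), transcription factors that start gliogenesis. Of 19 further oligodendrocyte lineage genes, 12 and 13 had a peak, with 52.4 and 49.3 per Mb, led by Lhfpl3 (36 and 31), Tmeff2 (16 and 14) and Enpp6 (7 and 7). Of 20 further microglia genes, 13 and 16 had a peak, with 53.2 and 55.3 per Mb. Sall1, a transcription factor of microglial identity, had 0 control and 6 MICAL1-FL peaks, and Mertk, a receptor used in engulfing dying cells, had 1 and 4. Runx1, a transcription factor of blood lineages, had 20 and 13. In each of these 3 lists 7 genes had 5 or more peaks. At least 2 times as many MICAL1-FL as control peaks were found at 0, 0 and 2 of them, the last being Sall1 and Mertk, where 13.5% of all protein-coding genes with 5 or more peaks had as many. At least 2 times as many control as MICAL1-FL peaks were found at Bcas1 (6 and 3) of the oligodendrocyte lineage list and at Ly86 (7 and 3) and Slco2b1 (6 and 3) of the microglia list, where 19.0% of all such genes did so.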

How the data were processed

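Both conditions of ATRX ChIP-seq in mouse primary neurons were used, with 1 library and 1 peak list each. The input sample that the labels name was not analysed here. The submitters' processing notes name MACS 1.4.2, Bowtie 1.3.0, ChIPseeker 1.26.2 and SAMtools 1.9 without saying what each did. Neither the genome build nor the threshold for calling is given in the sources used here. In the deposited lists each peak has a score (its -log10 p times 10, decimals dropped, in 100% of peaks), a fold as a ratio over background, a -log10 p, a -log10 q and a summit offset (another value, in bases), all made by the authors' peak caller. Total read counts are unknown. The largest deposited p was 0.0498 (control) and 0.0496 (MICAL1-FL).

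From these, depth was computed by taking fold as (depth + 1) / (background + 1) with p the Poisson tail above that depth, an inference that gave whole numbers within 0.05 for 100% of peaks in each list. Genes came from RefSeq GRCm38.p6, protein-coding on the chromosomes, 1 per symbol, and all 35 symbols matched. All-gene values count each peak once over the union of genes and flanks. "At the all-gene density" multiplies a gene's length with flank by peaks per Mb over all genes. Python 3.11.15, NumPy 2.4.6, pandas 2.3.3, SciPy 1.17.1 and Matplotlib 3.10.9 were used, and the counting was tested on simulated data.

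The members and the gene lists were chosen with earlier results of these data known. All 35 members are named. Those given in detail were those with a summit within 1 kb of a gene end, overlapping peaks, most peaks or highest density in their class, at least 2 times as many peaks in 1 list (of 5 or more together), no peak, or the strongest peak of a class, and from the further lists up to 3 genes of most peaks or past that fold. More than 3 are named from the further oligodendrocyte lineage and microglia lists, and the extra ones were chosen after their values were seen. Some results that this rule names are not reported here. The length bands, RefSeq starts and the value without Slc1a3 were chosen after the data were seen. Alternatives varied the flank, the peak threshold, the overlap rule, the distance to a gene end, the fold and the members.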

Additional observations from a re-analysis of the deposited data

How the results depend on the processing

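Of 119 values under 12 alternatives, 93 stayed within the main interval or within 1.5 times the main count. No paired analysis was possible because each condition has 1 library. Peak strength mattered most. With -log10 p of at least 3, 15 control and 12 MICAL1-FL peaks were left, and the MICAL1-FL density of oligodendrocyte lineage genes relative to all genes reversed from 1.96 to 0.492 on 1 peak. Relative densities became 0.374 and 0 for microglia (control and MICAL1-FL). For all glial genes they became 1.31 (0.733 to 2.16) in control and 1.32 (0.683 to 2.31) in MICAL1-FL, intervals that both include 1. Ratios of peak numbers became 0.167 for oligodendrocyte lineage, 0 for microglia and 0.8 for all. Genes with a peak fell to 8 and 5, genes with an end peak to 2 and 1, and genes past 2 times to 2 (MICAL1-FL) and 0 (control). With the strongest 50000 peaks of each list, relative density was 1.16 for oligodendrocyte lineage genes (MICAL1-FL) and 0.359 for microglia (control), genes with a peak numbered 16 and 15, MICAL1-FL end peaks 5 and genes past 2 times 2 (MICAL1-FL), and 4.08% of control peaks were shared. Requiring an overlap of 50% of both peaks gave shared shares of 3.51% and 3.10%. End peaks lay at 21 and 15 genes within 3 kb, and at 4 (control) and 8 (MICAL1-FL) within 500 bp. At 1.5 times, 6 genes had more MICAL1-FL and 2 more control peaks. The cause was not tested; stricter lists hold fewer peaks by construction. Counts of 0 to 4 peaks, as at most of these genes, cannot show a difference at this depth.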

Other observations

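Markers of other cells that such cultures could hold also carried ATRX peaks in both lists; the genes named here were chosen after their values were seen. Of 14 vascular and fibroblast genes, 9 had a control and 11 a MICAL1-FL peak, where 64.0% and 61.2% of all protein-coding genes did, with 37 and 35 peaks in all (46.6 and 44.1 peaks per Mb). Cdh5, the cadherin of endothelial junctions, had 7 control peaks and 1 MICAL1-FL peak. Pecam1 (6 and 3), Kdr (4 and 1) and Pdgfrb (4 and 2) also had at least 2 times as many control peaks, which makes 4 of the 7 genes with 5 or more peaks (19.0% of all such genes). Tek, the angiopoietin receptor, had 2 and 9 and was the 1 gene of the 7 past that fold the other way (13.5% of all such genes). Among the 20 neuron markers, 16 and 19 had a peak, with 119 and 113 in all. Gad1, the GABA-making decarboxylase, had 8 control peaks and 1 MICAL1-FL peak (ratio 0.125, 0.00282 to 0.932). Such intervals lay below 1 at 1.29% of all protein-coding genes with 5 or more peaks. Of the 11 neuron markers with 5 or more peaks, 2, Gad1 and Tbr1 (4 and 1), had at least 2 times as many control peaks (19.0% of all such genes). The reverse was found at 0 of the 11 (13.5% of all such genes). Bcl11b, which encodes the cortical transcription factor CTIP2, had 20 and 15 peaks, and 7 of its control peaks overlapped a MICAL1-FL peak, against 5 at Slc4a4. Of the control peaks at neuron markers, 15.1% (9.22 to 22.8) overlapped a MICAL1-FL peak, against 8.77% at glial genes, and the intervals overlap.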
